A study of Mus musculus with 8 samples.

Results

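The naive pluripotency factors are regulators that mark mouse embryonic stem cells in the state of the epiblast before implantation. The 10 genes described here are Klf2, Klf4, Klf5, Esrrb, Tfcp2l1, Tbx3, Dppa3, Nr0b1, Prdm14 and Tcl1. They were chosen by name: every probe set was taken whose only gene symbol in the platform's gene table is 1 of these 10 and whose 8 values spanned at least 0.01 on the log2 scale. The array holds 21 probe sets of the 10 genes, of 34958 with 1 gene symbol. The span rule kept 14 of the 21, with at least 1 for each gene, among 10405 probe sets of 7181 genes. The other 7 (2 of Klf5, 2 of Tfcp2l1 and 3 of Tbx3) spanned at most 5.8e-08, so no difference was measured for them, while the smallest span among the 14 was 0.914. Since the rule keeps probe sets that vary, the variation itself is no finding.

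Naive stem cells are held in this state by a network of transcription factors whose members can partly replace each other. The cytokine LIF acts through its receptor, Jak kinases and Stat3 on Klf4 and Tfcp2l1, and through a parallel branch on Tbx3, while Wnt signalling raises Esrrb by relieving repression by Tcf7l1. Jmjd1a and Jmjd1b, encoded by Kdm3a and Kdm3b in current naming, remove methyl groups from H3K9, a mark of silent chromatin, and in mouse embryonic stem cells Jmjd1a has been reported to act at Tcl1 and Tfcp2l1.

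RNA was measured on 8 Affymetrix arrays, 1 per sample, in 4 groups of 2 biological replicates. Double-KO cells lack both enzymes (Jmjd1adelta/delta; Jmjd1bdelta/delta), Jmjd1a-KO cells lack Jmjd1a (Jmjd1adelta/delta; Jmjd1b+/+), Jmjd1b-KO cells lack Jmjd1b (Jmjd1a+/+; Jmjd1bdelta/delta), and WT cells carry both (Jmjd1a+/+; Jmjd1b+/+). Every sample grew in medium with LIF, a serum replacement and fetal calf serum, and the treatment text shared by the 8 samples names OHT at 800 nM, with no sample labelled as an OHT control. Double-KO cells were derived from a Jmjd1a-deficient line by adding a conditional Jmjd1b allele and the OHT-inducible recombinase MerCreMer, and the design text names 2 such lines without saying which replicate came from which. Jmjd1a-KO is described as a single deficient line. For Jmjd1b-KO the labels name cells from deficient mice and the design text names targeted lines. The sources used here do not give whether WT shares a parent line with the KO groups, so genotype and line cannot be told apart. P-values measure the spread between 2 samples a group, and in such bulk RNA fewer cells of a type and less RNA per cell cannot be told apart.

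The deleted genes followed the labels: Kdm3a read 4.60 and 4.77 in double-KO and 5.08 and 4.87 in Jmjd1a-KO, against 12.83 and 12.73 in WT. Kdm3b read 7.06 and 7.66 in double-KO and 7.07 and 7.10 in Jmjd1b-KO, against 9.91 and 9.96 in WT. All 10 listed embryonic stem cell markers were measured, and Pou5f1, which encodes the factor Oct4, read 12.07 to 12.67 on the 8 arrays. In double-KO against WT 4 of the 10 rose (Sox2, Nanog, Zfp42 and Tdgf1) and Lin28a fell, where 28.2% of all genes were called higher and 19.8% lower. The calls of Tdgf1 (without WT replicate 1 or 2, adjusted p up to 0.0661) and Lin28a (without any 1 array of WT or double-KO, up to 0.115) were lost. The mean of the list was 11.45 in double-KO replicate 1 and 12.11 in replicate 2, the lowest and highest of the 8 arrays. A pair of arrays stood apart: the Y-linked gene Eif2s3y read 3.73 in double-KO replicate 2 and 3.19 in Jmjd1a-KO replicate 2. It read 7.62 and 7.66 in WT and 9.14 to 12.17 on the others. Each of the 6 measured Y-linked probe sets was lowest on that pair of arrays and next lowest on the WT arrays. The SD of the difference between replicates over all probe sets was 0.283 for double-KO and 0.334 for Jmjd1a-KO, but 0.119 for Jmjd1b-KO and 0.157 for WT. Markers of other cells moved with genotype. The mean log2 level of fibroblast markers (10 measured of 16) was 8.86 and 8.63 in double-KO, 8.79 and 8.61 in Jmjd1a-KO and 7.66 and 7.50 in Jmjd1b-KO, against 9.65 and 9.75 in WT. That of primitive endoderm markers (9 of 14) was 8.26 and 7.83 in double-KO, 7.82 and 7.57 in Jmjd1a-KO and 6.87 and 6.82 in Jmjd1b-KO, against 7.22 and 7.31 in WT. Trophoblast markers (6 of 11) averaged 9.28 and 9.30 in double-KO, 7.97 and 7.95 in Jmjd1a-KO and 8.53 and 8.65 in Jmjd1b-KO, against 7.41 and 7.57 in WT. Neuroectoderm markers (4 of 8) averaged 8.04 and 7.50 in double-KO, 7.69 and 8.80 in Jmjd1a-KO and 6.68 and 6.62 in Jmjd1b-KO, against 8.84 and 8.90 in WT. In double-KO against WT the collagen genes Col1a1 (-2.40) and Col1a2 (-2.96) and the neural marker Fabp7 fell, while Gata6 (0.48) and Sox17 (1.07) of primitive endoderm and Tfap2c (3.89) and Eomes (1.16) of trophoblast rose. Of these calls only that of Fabp7 was lost without 1 array (WT replicate 1 or 2 or double-KO replicate 2, adjusted p up to 0.0637). Of the 9 primitive endoderm markers 7 passed as higher and 1 as lower, beside 28.2% and 19.8% of all genes. The 1 that fell was Amn (6.50 and 6.68 in double-KO, 7.09 and 7.06 in WT), a call held without any 1 array. Of the 6 trophoblast markers 5 passed as higher, and Krt7 was not called (6.49 and 6.67 in double-KO, 6.66 and 6.57 in WT). Other markers of the same cells, among them Dcn and Lum of fibroblasts, Gata4 and Pdgfra of primitive endoderm and Cdx2 and Elf5 of trophoblast, spanned under 0.01, as did all 6 mesoderm markers on the array. These marker genes were named after their values were seen. The part of these cells and of the Y-linked difference in the results was not tested.

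RefSeq promoters (build GRCm38.p6) were at hand for 6 of the 10 genes, and 4 are printed for what their genes showed below: Klf2 was called in 5 of the 6 comparisons between groups and Klf4 in none, and the double-KO replicates of Esrrb and Nr0b1 were far apart. Each runs 5′ to 3′ over the 250 bases before the start of the gene on its own strand, with CG dinucleotides, the sites of DNA methylation, in capitals.
Klf2 promoter, chr8:72318812-72319061, plus strand: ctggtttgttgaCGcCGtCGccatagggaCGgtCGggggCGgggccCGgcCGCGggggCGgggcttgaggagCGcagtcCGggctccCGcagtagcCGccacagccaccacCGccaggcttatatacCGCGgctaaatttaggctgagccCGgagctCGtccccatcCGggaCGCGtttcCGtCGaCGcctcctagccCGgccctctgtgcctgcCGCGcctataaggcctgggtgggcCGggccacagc
Klf4 promoter, chr4:55532476-55532725, minus strand: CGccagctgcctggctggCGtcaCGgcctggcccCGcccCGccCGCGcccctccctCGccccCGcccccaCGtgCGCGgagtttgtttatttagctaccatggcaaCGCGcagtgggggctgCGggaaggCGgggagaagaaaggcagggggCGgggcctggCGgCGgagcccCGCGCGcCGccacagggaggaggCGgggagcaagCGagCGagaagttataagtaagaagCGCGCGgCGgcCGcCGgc
Esrrb promoter, chr12:86360867-86361116, plus strand: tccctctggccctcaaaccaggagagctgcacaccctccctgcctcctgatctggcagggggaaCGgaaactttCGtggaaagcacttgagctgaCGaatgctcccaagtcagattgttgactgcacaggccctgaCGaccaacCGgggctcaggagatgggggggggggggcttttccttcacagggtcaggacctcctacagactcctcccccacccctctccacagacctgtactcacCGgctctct
Nr0b1 promoter, chrX:86191525-86191774, plus strand: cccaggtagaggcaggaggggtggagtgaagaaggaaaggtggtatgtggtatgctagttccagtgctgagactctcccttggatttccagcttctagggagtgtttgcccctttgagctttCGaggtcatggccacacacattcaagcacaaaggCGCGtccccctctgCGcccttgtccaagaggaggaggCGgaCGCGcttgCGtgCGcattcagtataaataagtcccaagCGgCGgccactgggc

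The 2 Krüppel-like factor promoters hold 29 CG dinucleotides in Klf2 and 32 in Klf4, against a median of 6 over 32851 promoters, while those of Esrrb and Nr0b1 hold 6 and 11. The promoters not printed hold 16 in Tfcp2l1, 7 in Tcl1 and 3 in a second Esrrb promoter at chr12:86421394-86421643. The highest CG counts belong to Klf2, called in 5 comparisons, and to Klf4, called in none with its double-KO replicates far apart. A relation of CG count to change was not tested. Each was searched on both strands for the Stat3-type motif TTCNNNGAA, the Esrrb-type TCAAGGTCA and its core AAGGTCA, the Klf-type GGGTGTGG and the Tbx-type TCACACCT. The Stat3-type motif was found once, in the printed Esrrb promoter, as TTCGTGGAA 178 to 170 bases before the start, and 7.02% of all promoters of that length hold it. The other motifs, held by 4.08% (the core AAGGTCA), 3.2% (Klf-type), 1.12% (Tbx-type) and 0.387% (the full Esrrb-type) of all promoters, were in none of the 7 windows, which says only that these letters are not there.

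Klf2, a Krüppel-like zinc finger factor that binds many genes of the naive network, was highest in double-KO and intermediate in Jmjd1b-KO. Its probe set 1448890_at read 12.49 and 12.74 in double-KO, 10.85 and 10.69 in Jmjd1a-KO and 11.68 and 11.77 in Jmjd1b-KO, against 10.59 and 10.71 in WT. Double-KO was highest and Jmjd1b-KO next, with no overlap with any other group, while the Jmjd1a-KO and WT arrays overlapped. Differences are given as log2 units ± SE, estimated by 1 limma fit over the 8 arrays, with p adjusted over the 10405 probe sets and a threshold of 0.05. Klf2 rose by 1.97 ± 0.11 in double-KO against WT, which is 3.92-fold (adjusted p = 0.000203), and by 1.08 ± 0.11 in Jmjd1b-KO against WT (adjusted p = 0.00467). Jmjd1a-KO and WT differed by 0.12 ± 0.11 (adjusted p = 0.442, 95% interval -0.14 to 0.39). Double-KO was higher than Jmjd1a-KO by 1.85 ± 0.11 (adjusted p = 0.00058) and than Jmjd1b-KO by 0.89 ± 0.11 (adjusted p = 0.00147). Jmjd1a-KO was lower than Jmjd1b-KO, by -0.96 ± 0.11 (adjusted p = 0.00329). The call of Jmjd1b-KO against WT was lost without WT replicate 1 (adjusted p = 0.052) and without Jmjd1b-KO replicate 2 (adjusted p = 0.0503).

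Klf4, the Krüppel-like factor that Stat3 activates, split the 2 double-KO arrays. Probe set 1417394_at read 8.74 and 10.25 in double-KO, 10.37 and 10.66 in Jmjd1a-KO and 9.73 and 9.55 in Jmjd1b-KO, against 9.86 and 9.83 in WT. Probe set 1417395_at read 8.33 and 9.50 in double-KO, 9.33 and 9.72 in Jmjd1a-KO and 9.05 and 8.96 in Jmjd1b-KO, against 9.10 and 9.15 in WT. On both, double-KO replicate 1 was the lowest of the 8 arrays and replicate 2 lay above both WT arrays, so double-KO overlapped WT. No comparison passed the threshold for either probe set. For 1417394_at the difference was -0.35 ± 0.45 in double-KO (95% interval -1.45 to 0.76), 0.67 ± 0.45 in Jmjd1a-KO (-0.43 to 1.77) and -0.20 ± 0.45 in Jmjd1b-KO (-1.30 to 0.90), each against WT. The difference between double-KO and Jmjd1b-KO took its sign from the array: it was -0.14 with both arrays (adjusted p = 0.816), -0.90 without double-KO replicate 2 (adjusted p = 0.00856) and 0.61 without double-KO replicate 1 (adjusted p = 0.0291). Without double-KO replicate 2 the difference from WT was -1.10 (adjusted p = 0.0061) and that from Jmjd1a-KO -1.77 (adjusted p = 0.00365), and without either double-KO array (each left out in turn) the Jmjd1a-KO difference of 0.67 from WT passed (adjusted p = 0.0268), as did that of 0.87 from Jmjd1b-KO (adjusted p = 0.00889).

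Klf5, another Krüppel-like factor, which also acts earlier in the blastocyst, was called in no comparison between groups. Its 1 measured probe set, 1451021_a_at, read 9.66 and 10.45 in double-KO, 10.62 and 10.50 in Jmjd1a-KO and 10.20 and 10.04 in Jmjd1b-KO, against 10.26 and 10.28 in WT. Jmjd1a-KO lay above and Jmjd1b-KO below WT with no overlap, and the double-KO arrays lay on either side of WT. The differences from WT were -0.22 ± 0.24 in double-KO (95% interval -0.81 to 0.37), 0.29 ± 0.24 in Jmjd1a-KO (-0.30 to 0.88) and -0.15 ± 0.24 in Jmjd1b-KO (-0.74 to 0.44), and none passed the threshold (limma adjusted p = 0.49, 0.422 and 0.67 in that order). Without double-KO replicate 2 the double-KO difference from WT was -0.61 (adjusted p = 0.0106) and that from Jmjd1a-KO -0.90 (adjusted p = 0.00723).

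**Figure D1:**
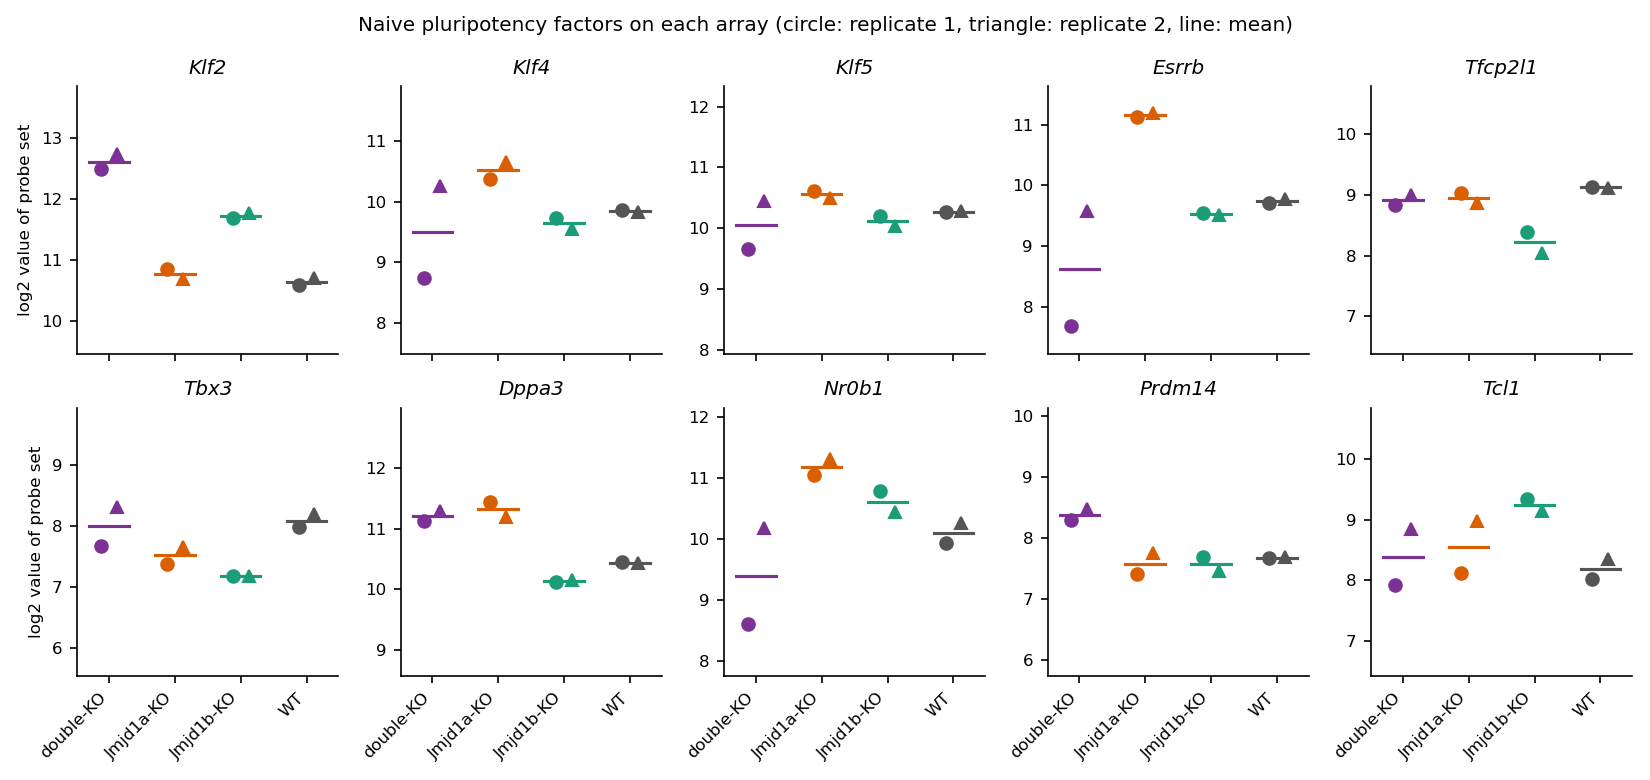
Log2 value (vertical axis, the same number of units in each panel) of the probe set with the highest mean of each of the 10 genes on the 8 arrays, by group (horizontal axis), with circles for replicate 1, triangles for replicate 2 and lines for the mean. In Klf2 double-KO and Jmjd1b-KO lay apart from each other and from the overlapping Jmjd1a-KO and WT arrays, while in Klf4, Esrrb and Nr0b1 double-KO replicate 1 minus replicate 2 was -1.51, -1.90 and -1.59.

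Esrrb, an orphan nuclear receptor at the Wnt branch of the network, was highest in Jmjd1a-KO on each probe set, and its lowest group mean was in double-KO on 2 of the 3 and in Jmjd1b-KO on 1422986_at. Probe set 1436926_at read 7.68 and 9.58 in double-KO, 11.13 and 11.19 in Jmjd1a-KO and 9.55 and 9.51 in Jmjd1b-KO, against 9.70 and 9.78 in WT. Probe set 1441921_x_at read 7.74 and 8.59 in double-KO, 9.67 and 9.57 in Jmjd1a-KO and 8.65 and 8.81 in Jmjd1b-KO, against 8.83 and 8.85 in WT. Probe set 1422986_at read 6.93 and 7.17 in double-KO, 7.65 and 7.80 in Jmjd1a-KO and 6.98 and 6.88 in Jmjd1b-KO, against 7.23 and 7.15 in WT. On all 3 probe sets the Jmjd1a-KO arrays lay above every other array, and on the first 2 both double-KO arrays lay below WT. On 1436926_at double-KO replicate 2 lay above both Jmjd1b-KO arrays, so those groups overlapped. Double-KO replicate 2 differed from the WT mean by -0.16 on 1436926_at and replicate 1 by -2.06.

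Double-KO was lower than Jmjd1a-KO on the 3 Esrrb probe sets, by -2.52 ± 0.55 (1436926_at, adjusted p = 0.0215), -1.46 ± 0.26 (1441921_x_at, adjusted p = 0.0115) and -0.68 ± 0.10 (1422986_at, adjusted p = 0.00768). For 1436926_at the call was lost without Jmjd1a-KO replicate 1 (adjusted p = 0.0572) or 2 (adjusted p = 0.0558), and all 3 in a fit of those 2 groups alone (adjusted p = 0.108, 0.0795 and 0.0653). Against WT, Jmjd1a-KO rose by 0.53 ± 0.10 on 1422986_at (adjusted p = 0.0234), while the other probe sets gave 1.42 ± 0.55 (adjusted p = 0.124) and 0.78 ± 0.26 (adjusted p = 0.0845). That call was lost without WT replicate 1 (adjusted p = 0.0909) or 2 (0.129) and without either Jmjd1b-KO array (0.0548 for each). Without either double-KO array the fit had a smaller shared spread, and the same differences of 1.42 and 0.78 then passed (adjusted p = 0.00264 and 0.0101). The double-KO differences from WT were -1.11 ± 0.55 (adjusted p = 0.148), -0.68 ± 0.26 (adjusted p = 0.0739) and -0.14 ± 0.10 (adjusted p = 0.29), and without double-KO replicate 2 the first was -2.06 (adjusted p = 0.0006). Jmjd1a-KO was higher than Jmjd1b-KO by 0.79 ± 0.10 on 1422986_at (adjusted p = 0.00479) and by 0.89 ± 0.26 on 1441921_x_at (adjusted p = 0.0487), the second lost without any 1 of the 6 arrays outside double-KO (adjusted p = 0.0871 to 0.195).

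The LIF-dependent factors Tfcp2l1 and Tbx3 fell in Jmjd1b-KO against WT, and both were higher in double-KO than in Jmjd1b-KO. Tfcp2l1, a CP2 family factor and Stat3 target, read 8.84 and 9.00 in double-KO, 9.03 and 8.87 in Jmjd1a-KO and 8.39 and 8.05 in Jmjd1b-KO, against 9.13 and 9.12 in WT (1418091_at). The Jmjd1b-KO arrays lay below every other array, and the WT arrays above every other. Tfcp2l1 fell by 0.91 ± 0.13 in Jmjd1b-KO against WT (adjusted p = 0.00994), was higher in double-KO than in Jmjd1b-KO by 0.70 ± 0.13 (adjusted p = 0.0065) and higher in Jmjd1a-KO than in Jmjd1b-KO by 0.73 ± 0.13 (adjusted p = 0.0115). Double-KO and Jmjd1a-KO differed from WT by -0.21 and -0.18, with 95% intervals of -0.52 to 0.11 and -0.49 to 0.14 (limma adjusted p = 0.235 and 0.363). The fall against WT was not called without WT replicate 1 (adjusted p = 0.0729), WT replicate 2 (0.0558) or Jmjd1b-KO replicate 2 (0.0566), and the difference between the single KOs not without Jmjd1b-KO replicate 2 (0.0541).

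Tbx3, a T-box factor that relays the second LIF branch, gave the same order on both measured probe sets. Probe set 1448029_at read 7.67 and 8.31 in double-KO, 7.38 and 7.65 in Jmjd1a-KO and 7.17 and 7.17 in Jmjd1b-KO, against 7.99 and 8.19 in WT. Probe set 1437479_x_at read 7.11 and 7.69 in double-KO, 6.67 and 7.29 in Jmjd1a-KO and 6.75 and 6.31 in Jmjd1b-KO, against 7.68 and 7.81 in WT. Both single KO groups lay below WT without overlap, and double-KO overlapped WT. In Jmjd1b-KO Tbx3 fell by 0.92 ± 0.21 and 1.22 ± 0.28 against WT (limma adjusted p = 0.0316 for each). Both calls were lost without any 1 array of the 2 groups (adjusted p = 0.114 to 0.142 for 1448029_at and 0.095 to 0.158 for 1437479_x_at). The Jmjd1a-KO differences from WT, -0.57 ± 0.21 (adjusted p = 0.112) and -0.76 ± 0.28 (adjusted p = 0.111), did not pass, though the first did without either double-KO array (adjusted p = 0.0368) and the second, at -1.08, without Jmjd1a-KO replicate 2 (adjusted p = 0.042). Double-KO was higher than Jmjd1b-KO by 0.82 ± 0.21 (adjusted p = 0.0213) and 0.87 ± 0.28 (adjusted p = 0.0444). The first was lost without Jmjd1b-KO replicate 1 (adjusted p = 0.0888) or 2 (0.0899), and the second without any 1 array of WT (0.0752 for each) or Jmjd1b-KO (0.0677 and 0.209) or double-KO replicate 2 (0.185).

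Nr0b1, an X-linked orphan receptor that binds Oct4, resembled Esrrb. It read 8.60 and 10.19 in double-KO, 11.05 and 11.31 in Jmjd1a-KO and 10.79 and 10.44 in Jmjd1b-KO, against 9.94 and 10.27 in WT (1417760_at). Jmjd1a-KO was highest and did not overlap the other groups, and Jmjd1b-KO lay between it and WT. Double-KO replicate 1 was the lowest array, and replicate 2 lay between the WT arrays. Double-KO was lower than Jmjd1a-KO by -1.79 ± 0.49 (adjusted p = 0.0403), a call that was lost without any 1 of the 6 arrays outside double-KO (adjusted p = 0.0726 to 0.106) and in a fit of those 2 groups alone (0.144). The differences from WT were -0.71 ± 0.49 in double-KO (adjusted p = 0.274), 1.08 ± 0.49 in Jmjd1a-KO (adjusted p = 0.169) and 0.51 ± 0.49 in Jmjd1b-KO (adjusted p = 0.478). Without either double-KO array the Jmjd1a-KO difference of 1.08 passed (adjusted p = 0.0235), and without double-KO replicate 2 the double-KO difference was -1.51 (adjusted p = 0.00794). Double-KO minus Jmjd1b-KO was -1.22 (adjusted p = 0.0818) with both arrays and -2.02 without that replicate (adjusted p = 0.00288).

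Dppa3, also called Stella, a maternal protein known to bind chromatin with H3K9 dimethylation and protect it from DNA demethylation in the zygote, was high in both groups without Jmjd1a. It read 11.12 and 11.29 in double-KO, 11.44 and 11.19 in Jmjd1a-KO and 10.13 and 10.16 in Jmjd1b-KO, against 10.45 and 10.44 in WT (1424295_at). The 4 arrays without Jmjd1a lay above the 4 others, and Jmjd1b-KO lay below WT. Dppa3 rose by 0.76 ± 0.10 in double-KO (adjusted p = 0.00224) and by 0.87 ± 0.10 in Jmjd1a-KO (adjusted p = 0.00752) against WT, which is 1.70-fold and 1.83-fold. Jmjd1b-KO differed from WT by -0.30 ± 0.10 (adjusted p = 0.0774), and this passed without either Jmjd1a-KO array (adjusted p = 0.0332). It was higher than in Jmjd1b-KO by 1.06 ± 0.10 in double-KO (adjusted p = 0.000698) and by 1.17 ± 0.10 in Jmjd1a-KO (adjusted p = 0.00169). Double-KO and Jmjd1a-KO differed by -0.11, with a 95% interval of -0.36 to 0.13 (adjusted p = 0.445). The call of Jmjd1a-KO against WT was lost without WT replicate 1 (adjusted p = 0.0535) or 2 (0.0615).

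Prdm14, a PR domain factor known to repress FGF signalling and the de novo DNA methyltransferase genes, was high in double-KO. It read 8.29 and 8.47 in double-KO, 7.40 and 7.75 in Jmjd1a-KO and 7.68 and 7.45 in Jmjd1b-KO, against 7.66 and 7.68 in WT (1444390_at). Both double-KO arrays lay above the 6 others, which overlapped each other. Prdm14 rose in double-KO by 0.71 ± 0.14 against WT (adjusted p = 0.00904), by 0.80 ± 0.14 against Jmjd1a-KO (adjusted p = 0.0112) and by 0.81 ± 0.14 against Jmjd1b-KO (adjusted p = 0.00501). The first was lost without WT replicate 1 (adjusted p = 0.0504), and the second in a fit of those 2 groups alone (0.0708). The single KOs differed from WT by -0.09 (Jmjd1a-KO, 95% interval -0.44 to 0.25) and -0.10 (Jmjd1b-KO, -0.45 to 0.24), and neither passed (limma adjusted p = 0.659 and 0.613).

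Tcl1, a coactivator of the kinase Akt that supports stem cell proliferation, differed between replicates in the groups without Jmjd1a. It read 7.92 and 8.84 in double-KO, 8.12 and 8.98 in Jmjd1a-KO and 9.35 and 9.14 in Jmjd1b-KO, against 8.02 and 8.35 in WT (1422458_at). Jmjd1b-KO lay above all other arrays, and the other groups overlapped. No comparison passed: the differences from WT were 0.20 ± 0.39 in double-KO (95% interval -0.74 to 1.15), 0.37 ± 0.39 in Jmjd1a-KO (-0.58 to 1.31) and 1.06 ± 0.39 in Jmjd1b-KO (0.12 to 2.00, limma adjusted p = 0.0942). In a fit of Jmjd1b-KO and WT alone the last passed (adjusted p = 0.00584). Without double-KO replicate 2, double-KO minus Jmjd1b-KO was -1.32 (adjusted p = 0.0414), against -0.86 with both arrays (adjusted p = 0.111).

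**Figure D2:**
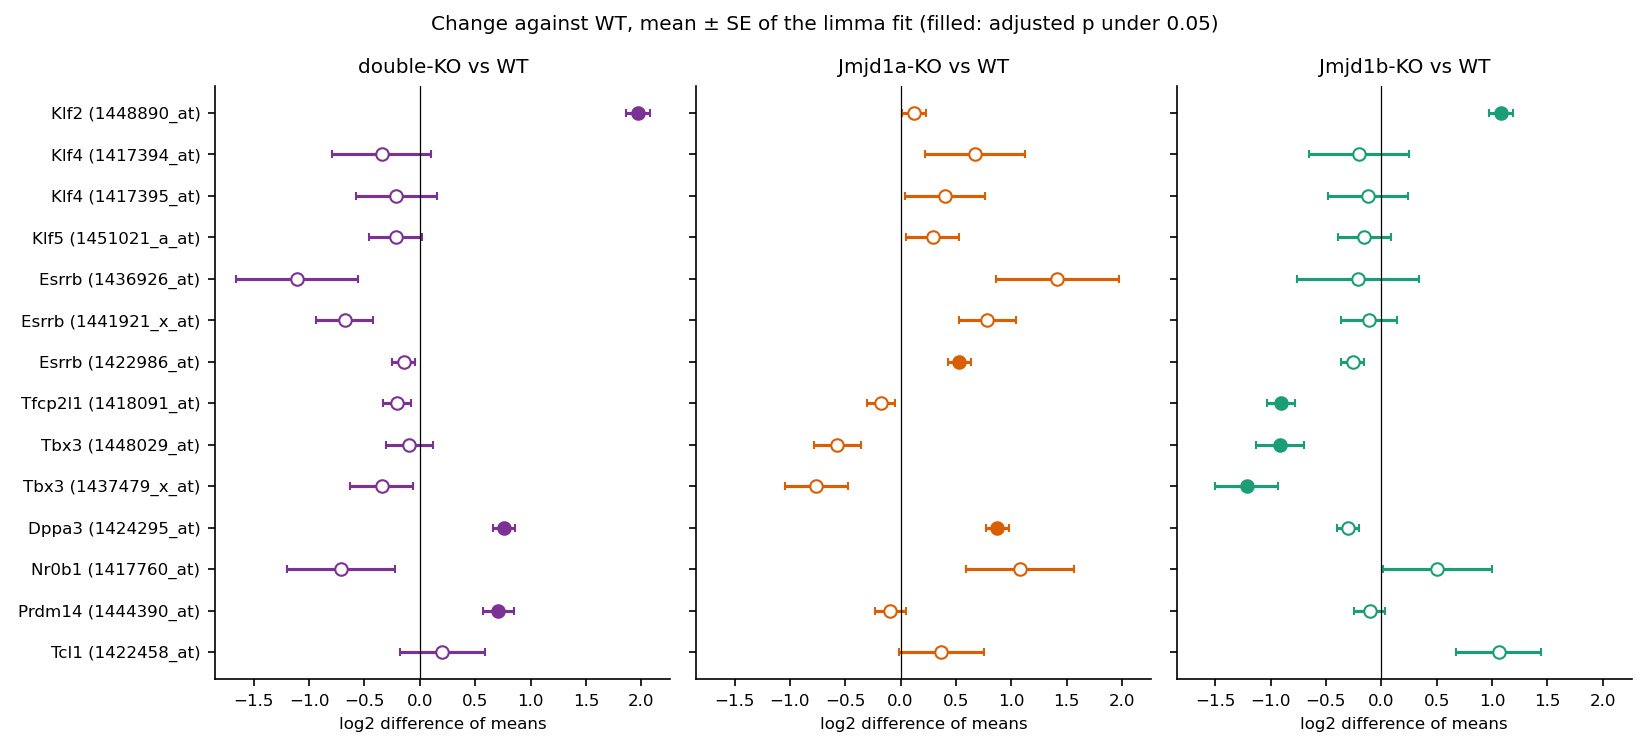
Log2 difference of group means from WT with its SE (horizontal axis) for the 14 probe sets (rows) in double-KO, Jmjd1a-KO and Jmjd1b-KO, with filled points where the adjusted p was under 0.05. Klf2 rose in double-KO and Jmjd1b-KO, Dppa3 in double-KO and Jmjd1a-KO, and Tfcp2l1 and Tbx3 fell in Jmjd1b-KO, while the SE of Klf4, Esrrb 1436926_at and Nr0b1 (0.45, 0.55 and 0.49) was wide.

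Counted over the 14 probe sets, 3 passed in double-KO against WT, all higher (Klf2, Dppa3 and Prdm14), where 47.6% of all 10405 probe sets passed, 27.8% higher and 19.9% lower. In Jmjd1a-KO against WT 2 passed, both higher (Esrrb 1422986_at and Dppa3), beside 18.4% of all (10.4% higher and 8.05% lower). In Jmjd1b-KO against WT 4 passed, 1 higher (Klf2) and 3 lower (Tfcp2l1 and both of Tbx3), beside 24% of all (12.7% higher and 11.3% lower). Between double-KO and Jmjd1a-KO 6 passed, 2 higher (Klf2 and Prdm14) and 4 lower (the 3 of Esrrb and Nr0b1), beside 29.2% of all (17.4% higher and 11.8% lower). Between double-KO and Jmjd1b-KO 6 passed, all higher (Klf2, Tfcp2l1, both of Tbx3, Dppa3 and Prdm14), beside 51.2% of all (28.7% higher and 22.5% lower). Between Jmjd1a-KO and Jmjd1b-KO 5 passed, 4 higher (2 of Esrrb, Tfcp2l1 and Dppa3) and 1 lower (Klf2), beside 27.9% of all (14.7% higher and 13.2% lower). With arrays centred on their medians over the 10405 tested probe sets, the higher share of the calls over these probe sets was 44.8% in double-KO (58.3% as deposited), 46.3% in Jmjd1a-KO (56.3%) and 44.2% in Jmjd1b-KO (52.8%) against WT. It was 47.1% in double-KO against Jmjd1a-KO (59.6%) and 48% in double-KO against Jmjd1b-KO (56.1%), so that the majority turned in these 5 comparisons. As shares, 3 of 14 was below the share of all probe sets in double-KO against WT, and the single KO counts against WT lay near theirs. The median difference of the 14 was -0.21 in double-KO, 0.38 in Jmjd1a-KO and -0.18 in Jmjd1b-KO against WT, beside medians between 0.00415 and 0.0247 for all probe sets.

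Groups did not overlap for 6 of the 14 probe sets in double-KO against WT, where 79% of all probe sets did not overlap, for 11 in Jmjd1a-KO (64.9% of all) and for 13 in Jmjd1b-KO (77.7% of all). Between the KO groups it was 9 for double-KO against Jmjd1a-KO (62.5% of all), 9 for double-KO against Jmjd1b-KO (82.8% of all) and 12 for Jmjd1a-KO against Jmjd1b-KO (68.3% of all). Counted as genes with any probe set called, 3 of the 10 passed in double-KO (51.2% of 7181 genes), 2 in Jmjd1a-KO (21.1%) and 3 in Jmjd1b-KO (27.4%) against WT. It was 4 for double-KO against Jmjd1a-KO (33.1%), 5 for double-KO against Jmjd1b-KO (55.7%), 4 between the single KOs (32%) and 5 for the departure from additivity tested next (29.7%). The 3 comparisons with WT share its 2 arrays. Of 32 changes called over the 6 comparisons and the departure from additivity, 13 were called without each array in turn. The 7 that were called under each of the 18 alternatives belonged to Klf2 (double-KO against each other group, and Jmjd1a-KO against Jmjd1b-KO) and Dppa3 (double-KO against WT and Jmjd1b-KO, and Jmjd1a-KO against Jmjd1b-KO).

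A departure from additivity was tested as the double-KO minus Jmjd1b-KO difference less the Jmjd1a-KO minus WT difference, that is, how far double-KO lay from the sum of the 2 single losses on the log2 scale. Klf2, Tfcp2l1, Tbx3 and Prdm14 lay above the sum and Esrrb below it. For Klf2 the sum was 1.20 and double-KO was 1.97 above WT, a departure of 0.77 ± 0.15 (adjusted p = 0.0185). Tfcp2l1 departed by 0.88 ± 0.18 (adjusted p = 0.0214), with a sum of -1.08 and a double-KO difference of -0.21. For Tbx3 the sums were -1.49 and -1.98 and the double-KO differences -0.10 and -0.35, departures of 1.39 ± 0.30 (adjusted p = 0.0238) and 1.63 ± 0.40 (adjusted p = 0.0332). Prdm14 departed by 0.91 ± 0.20 (adjusted p = 0.024), and Esrrb 1441921_x_at by -1.35 ± 0.36 (adjusted p = 0.0426), with a sum of 0.67 and a double-KO difference of -0.68. These 6 of 14 probe sets, 5 above and 1 below the sum, stood beside 25.8% of all probe sets that passed this test (14.4% above and 11.4% below). On Esrrb 1436926_at and Nr0b1 the departures were -2.31 ± 0.78 and -2.30 ± 0.69 and did not pass with both double-KO arrays (adjusted p = 0.0762 and 0.057). They passed without double-KO replicate 1 (-1.36 and -1.50) and without replicate 2 (-3.27 and -3.09). Dppa3 departed by 0.19, with a 95% interval of -0.16 to 0.53. None of the 6 calls held without WT replicate 1 (adjusted p = 0.0512 to 0.119), WT replicate 2 (0.0688 to 0.113) or Jmjd1b-KO replicate 2 (0.0546 to 0.135). All but Tfcp2l1 were lost without Jmjd1b-KO replicate 1 (0.053 to 0.108), Esrrb and Tbx3 without Jmjd1a-KO replicate 1 (0.0511 to 0.0866), Esrrb without Jmjd1a-KO replicate 2 (0.0586), and Tbx3 1437479_x_at and Prdm14 without double-KO replicate 2 (0.0643 and 0.0533).

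**Figure D3:**
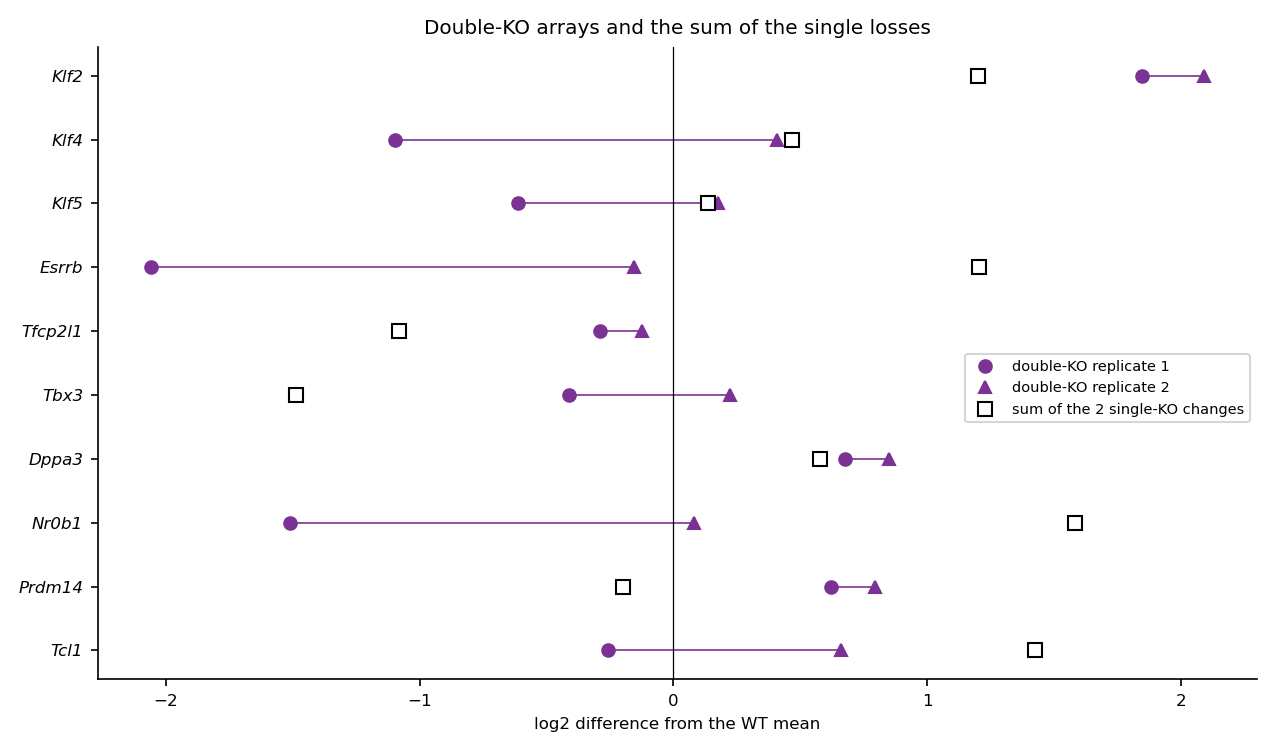
Difference of each double-KO array from the WT mean (circle for replicate 1, triangle for replicate 2, log2 units) and the sum of the Jmjd1a-KO and Jmjd1b-KO differences from WT (open square), for the probe set with the highest mean of each gene. Both double-KO arrays lay to the right of the sum in Klf2, Tfcp2l1, Tbx3, Dppa3 and Prdm14, and to its left in Klf4 (sum 0.47), Esrrb (1.20), Nr0b1 (1.58) and Tcl1 (1.43), and of the probe sets drawn only that of Klf5 had the sum between them. On Klf4 1417395_at, which is not drawn, the sum (0.28) also lay between the double-KO arrays (-0.80 and 0.37).

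The double-KO replicates differed in the naive factors. All 14 probe sets were lower in replicate 1 than in replicate 2, with a median difference of -0.71, while 48.7% of all probe sets were lower and the median over all was 0.00427. The shift was not particular to these factors. Its median was -0.46 for the 10 embryonic stem cell markers and -0.43 for the 25 other naive and ground state genes, lists that share genes. For the 9 primitive endoderm and 10 fibroblast markers it was 0.55 and 0.23. At least 1 log2 unit separated the replicates in 4 of the 14, beside 0.605% of all: Esrrb 1436926_at by -1.90, Nr0b1 by -1.59, and Klf4 by -1.51 and -1.17. They were among the 26 probe sets of 21 genes that were lower by 1 or more in replicate 1, and ranked 4, 6, 7 and 16 of 10405. Klf2 (-0.25), Dppa3 (-0.17), Prdm14 (-0.18) and Tfcp2l1 (-0.16) differed little. The 3 genes called higher in double-KO against WT are among them, but a call itself depends on agreement between replicates. The rest of the 26 included Fgf4, the FGF ligand of stem cells (-2.80 and -2.79), and the oocyte and stem cell gene Ooep (-1.75). These 2 replicates also differed in the deleted gene Kdm3b (7.06 in replicate 1 and 7.66 in replicate 2) and in the Y-linked genes, and the part of either in this split was not tested. In no other group did any of the 14 differ by 1 or more, and the widest gap there was -0.86 for Tcl1 in Jmjd1a-KO.

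A fit with replicate 1 as the only double-KO array assumes that its spread is like that of the other groups. On that array Esrrb 1436926_at differed from WT by -2.06, Nr0b1 by -1.51, Klf4 1417394_at by -1.10 and Klf5 by -0.61. Klf2, Dppa3 and Prdm14 were higher than WT on it. In another alternative both arrays low in Y-linked genes (double-KO replicate 2 and Jmjd1a-KO replicate 2) were left out. Klf2, Dppa3 and Prdm14 then rose by 1.85, 0.68 and 0.62 in double-KO against WT. This alternative leaves 1 array in each of the 2 groups and was chosen after seeing the data.

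**Figure D4:**
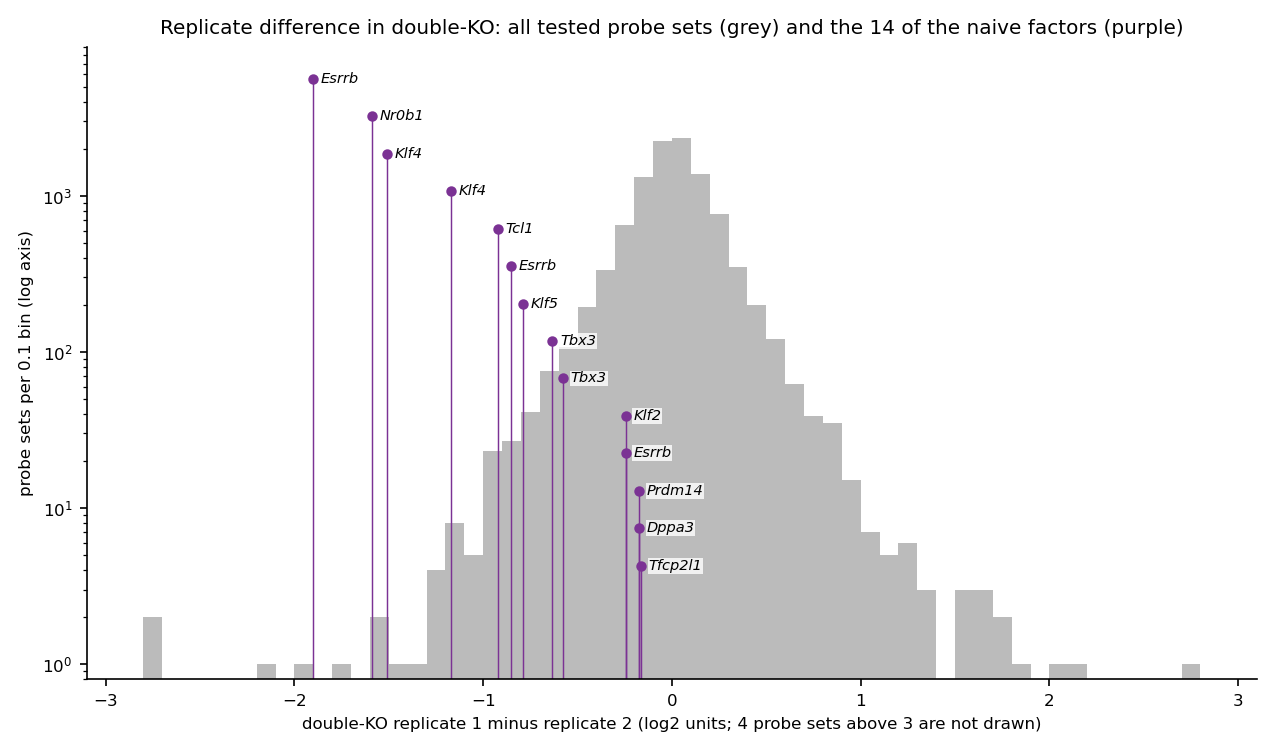
Number of probe sets (vertical axis, log scale) by the difference of double-KO replicate 1 minus replicate 2 (horizontal axis, log2 units) for 10405 probe sets in grey, with a purple line for each of the 14 of the naive factors, whose heights carry no value. All 14 lay left of 0 and 4 of them at -1 or lower, and 4 probe sets of other genes above 3, the highest at 8.44, are not drawn.

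The other naive and ground state genes on the list did not move one way. Of 25 measured of 31 listed, 5 passed as higher and 4 as lower in double-KO against WT, where 28.2% of all 7181 genes rose and 19.8% fell by the probe set with the highest mean. The stem cell factor Nanog rose by 1.34 and the Nodal inhibitor Lefty1 by 1.43, while Ooep fell by 3.20 and the homeobox gene Gbx2 by 2.37. Jmjd1a-KO had 2 higher and 1 lower than WT (10.2 and 7.94% of all genes), with Zfp42, known as Rex1, up by 1.01 and the transcription factor gene Sox2 by 0.58. Jmjd1b-KO had 2 higher and 2 lower than WT (13.5 and 10.1% of all genes), with the adhesion gene Pecam1 up by 1.24, while Gbx2 fell by 3.18. Nanog read 11.60 and 12.09 in double-KO, 10.99 and 11.40 in Jmjd1a-KO and 11.05 and 10.81 in Jmjd1b-KO, against 10.57 and 10.43 in WT, so its double-KO arrays lay above all others. In double-KO against WT the calls of Nanog and Ooep held without any 1 array, while those of Lefty1 (adjusted p = 0.0506 without WT replicate 1) and Gbx2 (up to 0.127, lost without any 1 array outside Jmjd1a-KO) did not. Of the single KO calls, Zfp42 was lost without either WT array (up to 0.0896), Sox2 without 5 of the 8 arrays (up to 0.121), and Pecam1 and Gbx2 in Jmjd1b-KO without any 1 array of the 2 groups (up to 0.087 and 0.134).

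In the LIF and Stat3 pathway 12 of 16 listed genes were measured, and Stat3 itself and the ligand gene Lif spanned under 0.01. In double-KO against WT 3 rose, the kinase genes Jak2 (1.19) and Jak1 (0.90) and the receptor subunit gene Il6st (0.79), and 2 fell, both counts below the shares of all genes (28.2% higher and 19.8% lower). The genes that fell were Gbx2 (-2.37) and the LIF receptor gene Lifr (-0.75), which is named after its value was seen because it completes the count. In Jmjd1a-KO against WT 0 passed by limma, and 4 had an unadjusted p under 0.05. In Jmjd1b-KO against WT the kinase gene Tyk2 rose (0.63) and Gbx2 (-3.18) and Lifr (-0.84) fell. Lifr read 8.82 and 8.94 in double-KO, 10.25 and 9.80 in Jmjd1a-KO and 8.96 and 8.62 in Jmjd1b-KO, against 9.80 and 9.47 in WT, so that it was low in both groups without Jmjd1b. The calls of Jak1, Jak2 and Il6st held without any 1 array, whereas those of Lifr in double-KO (adjusted p up to 0.119, lost without WT replicate 1 or either double-KO array), and of Lifr, Gbx2 and Tyk2 in Jmjd1b-KO (up to 0.158, 0.134 and 0.0992, lost without any 1 array of the 2 groups), did not. Of the Wnt and Tcf7l1 branch 6 of 15 genes were measured, and in double-KO against WT 2 rose, the receptor gene Lgr4 (1.17) and Ctnnb1, which encodes beta-catenin (0.36), both held without any 1 array. For 6 genes that count was near the 28.2% of all genes called higher. In Jmjd1a-KO 2 rose and 1 fell, and in Jmjd1b-KO 2 fell, each against WT, and the partner of beta-catenin Lef1 fell in both (-0.53 in each, lost without either WT or either Jmjd1b-KO array, adjusted p up to 0.163 and 0.152). Lgr4 and Apc rose in Jmjd1a-KO. The call of Lgr4 was lost without either WT array (limma adjusted p up to 0.0727), and that of Apc without any 1 array but Jmjd1a-KO replicate 2 (up to 0.174). For both lists, the shares of all genes called higher and lower against WT were 10.2% and 7.94% in Jmjd1a-KO and 13.5% and 10.1% in Jmjd1b-KO.

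Among FGF and ERK genes, the branch that naive cells hold down, 14 of 18 were measured, of which double-KO had 4 higher and 2 lower than WT, close to or below the 28.2% and 19.8% of all genes. They include the pathway inhibitor genes Dusp4 (1.83), Spry2 (1.31) and Spry1 (1.16), which rose, and the ETS factor gene Etv5 (-1.09), which fell. The call of Dusp4 was lost without either WT array or double-KO replicate 1 (adjusted p up to 0.0743). Jmjd1a-KO had 2 higher and 1 lower, and Jmjd1b-KO 3 higher and 2 lower, than WT. Of the formative and primed epiblast genes 17 of 19 were measured, and 2 rose and 7 fell in double-KO, 6 fell in Jmjd1a-KO, and 1 rose and 5 fell in Jmjd1b-KO, each against WT. The shares of all genes called higher and lower were 28.2% and 19.8% for double-KO, 10.2% and 7.94% for Jmjd1a-KO, and 13.5% and 10.1% for Jmjd1b-KO. In double-KO the de novo methyltransferase gene Dnmt3a (-3.32), its cofactor gene Dnmt3l (-2.10) and the POU factor gene Pou3f1 (-1.72) fell, and the growth factor gene Fgf5 rose (2.67), and of these only the call of Pou3f1 was lost without 1 array (adjusted p up to 0.0841, for WT replicates 1 and 2 and double-KO replicate 2). Dnmt3a read 8.15 and 8.82 in double-KO, 10.34 and 11.02 in Jmjd1a-KO and 11.73 and 11.83 in Jmjd1b-KO, against 11.83 and 11.78 in WT. Dnmt3a (-1.13) and Dnmt3l (-1.56) also fell in Jmjd1a-KO against WT. Both of these Jmjd1a-KO calls were lost without WT replicate 1 or 2, Jmjd1a-KO replicate 1 or either Jmjd1b-KO array (adjusted p up to 0.171 for Dnmt3a and 0.129 for Dnmt3l).

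Likeness to the 3 members with the widest range of group means was measured as the root mean square difference of the 8 values after each probe set was centred on its mean, in log2 units. Other probe sets of the same gene were left out. The profile nearest to Esrrb 1436926_at was then that of Nr0b1 (0.422, beside 1.02 for Esrrb around its own mean), followed by Tet1, a 5-methylcytosine oxidase gene (0.5), and Ckb, a creatine kinase gene (0.503). Nearest to Klf2 were 1700018B24Rik (0.0956), Gsn, which encodes the actin-severing protein gelsolin (0.131), and Gtsf1, a gene of the piRNA pathway (0.131), beside 0.802 for Klf2 around its own mean. Nearest to Nr0b1 were 2 probe sets of Dusp9, a phosphatase gene that restrains ERK (0.342 and 0.357), and Ckb (0.36), beside 0.782 for Nr0b1 around its own mean. The 8 arrays share the groups and the double-KO split, so these values describe a shared profile.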

How the data were processed

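The values used are log2 expression as deposited by the authors, 1 per array for each of 45101 probe sets, a unit inferred from the values themselves. R 2.7.2 is named in the submitters' processing notes. How the background was corrected and the arrays normalized and summarized is, for all, not given in the sources used here. Values on the 8 arrays spanned less than 0.01 in 74.5% of probe sets, and array medians lay between 6.80 and 6.81. No signal over background was analysed, so precision is limited by the number of arrays.

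Gene names came from the platform table, in which 34958 probe sets had 1 symbol, while 932 with several and 9211 with none stayed out. The 10405 of the 34958 that spanned at least 0.01 were tested in limma 3.58.1 (R 4.3.3) by a model with a mean for each genotype, moderated by eBayes, and Benjamini-Hochberg adjusted p was compared with 0.05. Flat probe sets were left out because with them the prior variance fell to 2.48e-20, against 0.00722 without. The fit was tested on simulated data.

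The members and lists were chosen with earlier results of these data known. Every member is named with every probe set, and like profiles by rule (3 a member). Genes called on the pathway and state lists are named by the size of the change (up to 4 a list and comparison), apart from Lifr. Cell type markers did not follow that rule and were named after their values were seen. Alternatives were another normalization, centring, filters on flat and dim probe sets, 1 probe set per gene, a fit of only the compared groups, the replicate block, weights for arrays and omission of each array. After seeing the data, a crossed numbering of the block and omission of the 2 arrays low in Y-linked genes were added. Promoters are RefSeq's, build GRCm38.p6. Plots used matplotlib 3.10.9 and Python 3.11.15.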

Additional observations from a re-analysis of the deposited data

Results flagged for a closer look

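Double-KO minus Jmjd1b-KO was unlike Jmjd1a-KO minus WT for 6 probe sets of 5 naive factors. The test took the second from the first (limma adjusted p between 0.0185 and 0.0426). Double-KO was derived from a Jmjd1a-deficient line, and genotype and line cannot be told apart. On the log2 scale the difference of the 2 was 0.767 for Klf2, 0.875 for Tfcp2l1, 1.39 and 1.63 for the 2 probe sets of Tbx3, 0.906 for Prdm14 and -1.35 for Esrrb 1441921_x_at. In Klf2 and Prdm14 both double-KO arrays lay above all other arrays. In Tfcp2l1 the difference goes with low Jmjd1b-KO values, against which double-KO was higher. In Tbx3 it goes with values below WT in both single KOs, -0.57 and -0.76 in Jmjd1a-KO (not called) and -0.92 and -1.22 in Jmjd1b-KO. In Esrrb it goes with high Jmjd1a-KO values, against which double-KO was lower. Each of the 6 lost its call when either WT array was left out, and the calls were made on 2 arrays a group.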

How the results depend on the processing

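Counts of member genes called are given with the 8 arrays and then under an alternative. With flat probe sets in the fit they were 2 and 0 in Jmjd1a-KO against WT, 3 and 1 in Jmjd1b-KO against WT, 4 and 1 in double-KO against Jmjd1a-KO, 5 and 2 in double-KO against Jmjd1b-KO, 4 and 2 between the single KOs, and 5 and 0 for the departure from additivity. With 1 probe set per gene Jmjd1a-KO against WT gave 1. A fit of only the groups compared gave 6 in Jmjd1b-KO against WT and 1 in double-KO against Jmjd1a-KO, and array weights gave 6 in Jmjd1b-KO against WT. Leaving out 1 array gave 0 to 5 in Jmjd1a-KO, 0 to 4 in Jmjd1b-KO and 2 to 7 in double-KO against WT, 3 to 6 and 4 to 10 in double-KO against Jmjd1a-KO and Jmjd1b-KO, 3 to 6 between the single KOs, and 0 to 7 for the departure. With the 2 arrays low in Y-linked genes left out, more member genes were called in every comparison and for the departure. The same held over all probe sets. Klf4 1417394_at in double-KO against Jmjd1b-KO ran between -0.90 and 0.61 without 1 array, and turned to 0.61 without double-KO replicate 1. Quantile normalization and the dim filter changed no member's call. Same-numbered replicates deviated with correlations of -0.173 to 0.237, which cannot decide whether arrays of the same number were handled together. The replicate block ended 3 calls, Tbx3 1437479_x_at in double-KO against Jmjd1b-KO (0.87), Esrrb 1441921_x_at between the single KOs (0.89) and its departure (-1.35), so that 4 genes were called for the departure, and it changed no other call. With double-KO numbers crossed the counts were those of the fit without a block (2, 3, 3, 4, 5, 4 and 5). Over all 10405 probe sets, those called in Jmjd1a-KO against WT numbered 1918, and 394 in a fit of only these groups, 645 with flat probe sets and 1192 with array weights; in Jmjd1b-KO against WT 2498, and 4693, 691 and 5105; in double-KO against Jmjd1a-KO 3043, and 508, 1169 and 1442. In double-KO against WT they were 4956, and 3291 with flat probe sets; between the single KOs 2900, and 1919 in a fit of only these groups and 1205 with flat probe sets; for the departure 2686, and 1085 with flat probe sets. Omitting the 2 arrays low in Y-linked genes gave 4627 in Jmjd1a-KO against WT, 4693 in Jmjd1b-KO against WT and 4940 for the departure. Over the omissions of 1 array they ran from 3027 to 5635 in double-KO, 163 to 3425 in Jmjd1a-KO and 140 to 3515 in Jmjd1b-KO against WT, 1642 to 3176 and 3137 to 6033 (5327 with all arrays) in double-KO against Jmjd1a-KO and Jmjd1b-KO, 841 to 3222 between the single KOs and 846 to 3702 for the departure. Centring arrays on their medians over the 10405 tested probe sets moved the share of higher calls to 44.8% in double-KO against WT, against 58.3% as deposited, to 46.3% against 56.3% in Jmjd1a-KO against WT, to 44.2% against 52.8% in Jmjd1b-KO against WT, to 47.1% against 59.6% in double-KO against Jmjd1a-KO, and to 48% against 56.1% in double-KO against Jmjd1b-KO.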
